A study of Mus musculus with 8 samples.

Results

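The genes described here are the replication-dependent histone genes that the deposited count files list under the older *Hist1h* to *Hist4h* symbols, with at least 10 counts in at least 4 of the 8 libraries. Of 25239 gene rows, 9 carry such a symbol and 4 reached the floor: *Hist1h2an*, which encodes a histone H2A, *Hist1h2bp*, which encodes a histone H2B, and *Hist1h4m* and *Hist1h4n*, which both encode histone H4. Each of the 4 reached 10 counts in all 8 libraries, so the floor selected no genotype. A further 60 cluster histone genes appear in the same files under newer symbols (*H1f1*, *H2ac4*, *H2bc1* and so on), and the 56 of these at the floor were used as the comparison set.

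RNA-seq compared whole fetal ovaries at E14.5 from *Bmpr1a*-cKO embryos (Bmpr1a fl/fl; Oct4-Cre Cre/WT) with those from Bmpr1a fl/fl littermates, all on a C57BL/6 background. There were 4 libraries per genotype, each a pool of ovaries from 2 embryos, drawn across 6 litters. The dams of both genotypes had received 1 mg 4-hydroxytamoxifen and 0.5 mg progesterone on 3 days, 9.5 dpc, 10.5 dpc and 11.5 dpc (days post coitum), so control ovaries were exposed to the same agents but carried no Cre. The Oct4 promoter drives the inducible Cre in germ cells, and somatic cells keep the receptor, a type I receptor for bone morphogenetic proteins (BMPs). The question was which transcripts in the fetal ovary depend on BMP signalling in germ cells.

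Replication-dependent histone genes supply the core histones H2A, H2B, H3 and H4 and the linker histone H1 that package newly copied DNA. They lie in clusters, usually lack introns, are transcribed mainly in S phase, and give mRNAs that end in a conserved stem-loop rather than a poly(A) tail. Around E14.5, germ cells of the ovary are passing from the mitotic cycle into meiosis, while some somatic cells still divide. The paper found the meiotic protein SYCP3 in most control germ cells at E14.5 and in fewer mutant germ cells.

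All 4 genes lie within the large histone cluster on chromosome 13 (mm10, GENCODE vM21 gene models). *Hist1h2an* occupies chr13:21786826-21787218 on the minus strand as a single exon of 393 bases, and *Hist1h2bp* occupies chr13:21787461-21789213 on the plus strand. The 2 genes are divergent, with RefSeq start sites 240 bases apart. *Hist1h2bp* has 2 annotated transcripts, and 1 of them is spliced. *Hist1h4m* (chr13:21811746-21812147, plus strand, 402 bases) and *Hist1h4n* (chr13:21831767-21832196, minus strand, 430 bases) are single-exon genes that face each other with start sites 20451 bases apart. A microRNA gene model, *Gm44346*, overlaps *Hist1h2an*, and no other annotated gene overlaps the other members.

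The promoter region of the divergent pair is shown because 1 stretch serves both genes, and that of *Hist1h4m* because *Hist1h4n* repeats it. Both are the 250 bases before the RefSeq start site on GRCm38.p6. The windows upstream of *Hist1h2an* and *Hist1h2bp* share 239 bases, so 1 sequence stands for both, and the windows of *Hist1h4m* and *Hist1h4n* were identical over the 249 bases that aligned. Capitals mark exact matches on either strand to the TATA box, searched as TATAAA, or to the CCAAT box.
Hist1h2bp, chr13:21787238-21787487, plus strand: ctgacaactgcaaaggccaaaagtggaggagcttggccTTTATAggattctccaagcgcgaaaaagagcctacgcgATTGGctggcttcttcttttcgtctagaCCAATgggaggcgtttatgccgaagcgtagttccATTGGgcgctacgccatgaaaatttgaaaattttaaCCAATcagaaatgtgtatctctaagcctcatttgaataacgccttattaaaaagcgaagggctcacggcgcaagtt
Hist1h4m, chr13:21811496-21811745, plus strand: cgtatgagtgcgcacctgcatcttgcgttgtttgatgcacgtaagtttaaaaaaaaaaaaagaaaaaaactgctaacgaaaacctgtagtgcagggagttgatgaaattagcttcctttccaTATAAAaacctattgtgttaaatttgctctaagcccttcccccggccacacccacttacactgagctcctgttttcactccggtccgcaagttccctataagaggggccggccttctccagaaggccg

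The shared H2A-H2B region held 4 CCAAT matches and 1 TATA match. Each H4 promoter held 1 TATA match and no CCAAT match. Among the promoters of the other cluster genes, CCAAT was in 15 of 15 for H2A, 14 of 14 for H2B and 3 of 10 for H4. TATAAA was in 6 of 15, 7 of 14 and 4 of 10. Of 32851 RefSeq mouse promoters of the same length, 33.8% held CCAAT and 12.4% TATAAA. The octamer ATTTGCAT, known from H2B promoters, was in 7 of these H2A promoters, 7 of the H2B promoters, 0 of the H4 promoters and 1.6% of all promoters, and these letters were not in either window shown. Such matches describe letters only.

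The processing stem-loop, which the stem-loop binding protein SLBP holds during 3′ end formation, was found by searching the last 150 bases of each transcript for a stem of 6 pairs that starts with GG and closes a loop of 4 bases. It is in capitals below with up to 5 bases on either side. *Hist1h4n* carried the same 16 bases as *Hist1h4m*. The spliced transcript of *Hist1h2bp* and the GENCODE model of *Hist1h2an* held no match. That *Hist1h2an* model, of 393 bases, stops at position 21786826 on its 3′ side, whereas the RefSeq gene runs on to 21786774. The stretch between was not searched, so the lack of a match does not show that *Hist1h2an* lacks a stem-loop.
Hist1h2bp: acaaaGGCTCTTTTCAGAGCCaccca
Hist1h4m: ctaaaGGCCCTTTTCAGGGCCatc

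Shared sequence limited how far reads could be assigned to these genes. Of all words of 150 bases, the read length, that the transcript models contain, 77.4% were unique to the gene for *Hist1h2bp*, 27.5% for *Hist1h2an*, 22.8% for *Hist1h4n* and 14.2% for *Hist1h4m*. The transcripts of *Hist1h4m* and *Hist1h4n* differed at 1 of 402 aligned bases. A further 4 rows with older symbols, *Hist1h2ao*, *Hist1h2ap*, *Hist1h2bq* and *Hist1h2br*, were listed at 0 in every library. They form near-identical pairs in the same stretch of chromosome 13 (*Hist1h2bq* and *Hist1h2br* matched at all 1997 aligned bases), with 7.64% to 15.8% of words unique. The haemoglobin genes *Hba-a1*, *Hba-a2*, *Hbb-bs* and *Hbb-bt* were also listed at 0 in all libraries, so a 0 in such rows was not read as absence of the RNA. The levels of the 4 genes are therefore uncertain as shares of their families.

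The ninth row, *Hist1h2al*, fell just outside the floor, with at least 10 counts in 3 libraries. Its GENCODE model is a processed pseudogene on chromosome 13 at chr13:51202727-51203065, away from the cluster, and all its words were unique. Levels are given as CPM, counts scaled to a common library size after adjustment by the trimmed mean of M-values (TMM). On this scale it stood at 22.9, 0.177, 0.187 and 17.8 CPM in control replicates 1 to 4 and at 0.238, 0.149, 0.523 and 18.1 CPM in *Bmpr1a*-cKO replicates 1 to 4. High and near-zero libraries occurred in both genotypes.

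Library totals ranged from 8562961 to 15365052 counts. The precursor ribosomal RNA gene *Rn45s* took 13.1% to 16.7% of counts, and whether the RNA was poly(A)-selected or depleted of ribosomal RNA is not given in the sources used here. *Bmpr1a* itself ranged from 199 to 236 CPM in control and 185 to 209 CPM in *Bmpr1a*-cKO libraries (Log2FC -0.16 ± 0.06 SE, FDR = 0.0692). In a whole ovary, fewer cells of a type and less RNA per cell cannot be told apart.

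All 4 histone genes were lower in *Bmpr1a*-cKO ovaries. *Hist1h2bp*, the H2B gene, fell to 0.513 of its control level, *Hist1h2an* to 0.776, *Hist1h4m* to 0.698 and *Hist1h4n* to 0.694. By edgeR's quasi-likelihood test, 4 of 4 passed FDR 0.05 as lower, whereas 12.5% of the 14249 genes tested did, and no member was higher, against 17.3% of all genes. With the study's definition of differentially expressed genes (DEGs; |Log2FC| above 0.5 and FDR below 0.05), 3 were downregulated and none upregulated, against 4.06% and 6.11% of all genes. In 3 of the 4, every *Bmpr1a*-cKO library lay below every control library, as it did for 11.7% of all genes, and in none did every one lie above, as it did for 16.1%. At an unadjusted p below 0.05 and by DESeq2, again 0 members were higher.

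*Hist1h2bp*, the H2B gene, was at 28.3, 28.0, 32.0 and 22.9 CPM in control replicates 1 to 4 and at 17.0, 14.6, 13.3 and 12.3 CPM in *Bmpr1a*-cKO replicates 1 to 4. The groups were well separated, with the highest *Bmpr1a*-cKO library below the lowest control library. Its Log2FC of -0.96 ± 0.12 (SE; FDR = 2.26e-05) was the lowest of the 4. Among the 17 H2B genes tested in all clusters it ranked 2 from the lowest, after *H2bc1*.

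*Hist1h2an*, its divergent H2A neighbour, was at 52.2, 47.0, 49.5 and 41.3 CPM in control and at 34.7, 35.0, 40.1 and 37.3 CPM in *Bmpr1a*-cKO replicates. The groups did not overlap, but the lowest control library and the highest *Bmpr1a*-cKO library stood close together. The Log2FC was -0.37 ± 0.08 (SE; FDR = 0.00355), inside the DEG limit of 0.5. It ranked 5 from the lowest among 14 H2A genes.

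*Hist1h4m* was at 113, 94.3, 77.1 and 84.7 CPM in control and at 65.1, 65.7, 71.9 and 55.5 CPM in *Bmpr1a*-cKO replicates, again without overlap. The control spread was wide, with replicate 1 standing highest. The Log2FC was -0.52 ± 0.11 (SE; FDR = 0.00175). *Hist1h4n* was at 168, 119, 177 and 130.3 CPM in control and at 90.7, 89.1, 103 and 128 CPM in *Bmpr1a*-cKO replicates. Here the groups overlapped, since *Bmpr1a*-cKO replicate 4 exceeded control replicate 2. The Log2FC was -0.53 ± 0.13 (SE; FDR = 0.00581).

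**Figure D1:**
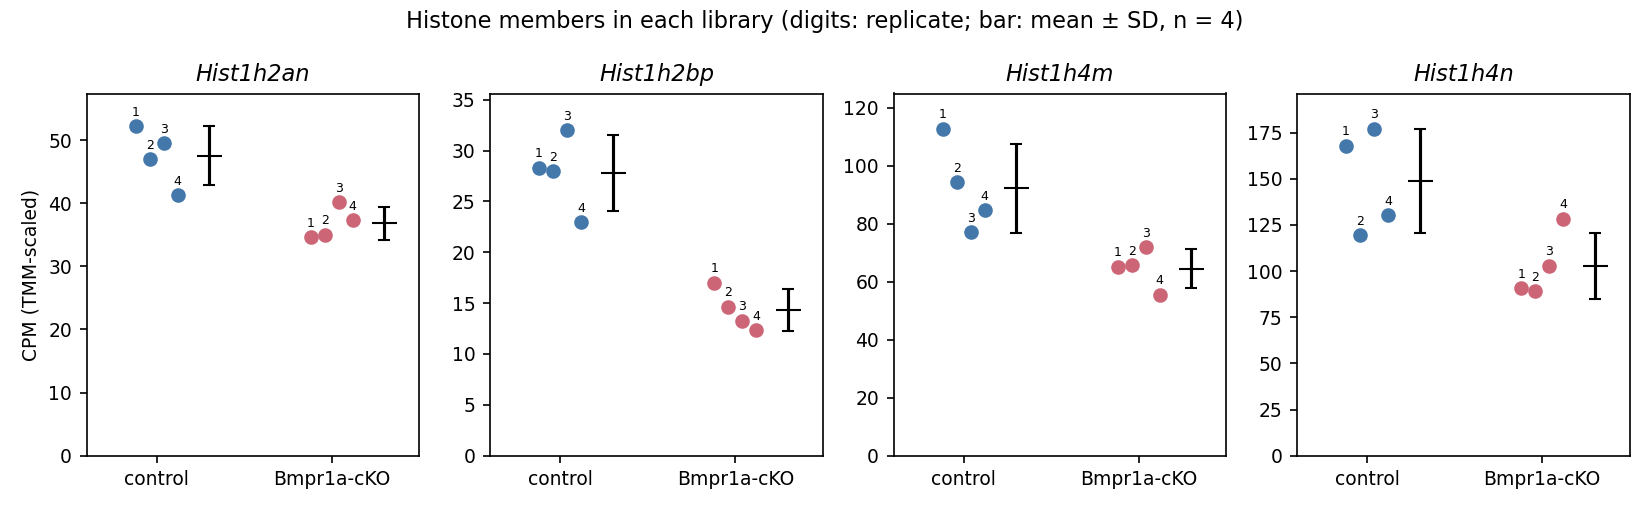
CPM on TMM-adjusted library sizes (y axis, linear from 0) of *Hist1h2an*, *Hist1h2bp*, *Hist1h4m* and *Hist1h4n* in each of the 4 control and 4 *Bmpr1a*-cKO libraries (x axis). Points are libraries with their replicate number, and bars are the mean ± SD. The *Bmpr1a*-cKO points lie below all control points in 3 panels, and in the panel of *Hist1h4n* 1 *Bmpr1a*-cKO library, at 128 CPM, lies within the control range.

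Because *Hist1h4m* and *Hist1h4n* share nearly all their sequence, their counts were also added into 1 row, a choice made after seeing the data. The summed H4 level was 281, 214, 254 and 215 CPM in control and 156, 155, 175 and 184 CPM in *Bmpr1a*-cKO libraries. With both genes together the groups no longer overlapped. The Log2FC was -0.52 ± 0.09 (SE; FDR = 0.000413).

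The DEG calls depended on single libraries more than the direction did. Without control replicate 1, only 1 of the 4 genes, *Hist1h2bp*, remained below the DEG limit, while all 4 still passed FDR 0.05. Without control replicate 3, or without *Bmpr1a*-cKO replicate 1, 2 or 4, 2 genes remained. *Hist1h4m* was a DEG in 6 and *Hist1h4n* in 4 of the 8 fits that left out 1 library. Over the 8 fits that each left out 1 library, the Log2FC ranged from -1.06 to -0.90 for *Hist1h2bp*, -0.44 to -0.32 for *Hist1h2an*, -0.60 to -0.41 for *Hist1h4m* and -0.66 to -0.44 for *Hist1h4n*.

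Per kilobase of annotated exon, *Hist1h4n* had the highest level in control ovaries at 346 ± 65.5 CPM per kb (SD, n = 4). *Hist1h4m* followed at 229 ± 38.4, *Hist1h2an* at 121 ± 11.9 and *Hist1h2bp* at 39.4 ± 5.27 CPM per kb. The H4 genes overlapped in range among control libraries and the other neighbours in this order did not. In *Bmpr1a*-cKO ovaries the order was the same, at 239 ± 42.1, 161 ± 16.9, 93.6 ± 6.47 and 20.3 ± 2.89 CPM per kb, and no neighbours overlapped. These levels take no account of the share of words unique to each gene, from 14.2% for *Hist1h4m* to 77.4% for *Hist1h2bp*. The *Hist1h2bp* length of 706 bases spans both its transcripts, whereas the 1 with the stem-loop has 469. The order is therefore of counts per annotated length, not of expression.

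Ratios between genes within a library do not depend on library scaling. The count of *Hist1h2an* over that of *Hist1h2bp* was 1.84, 1.68, 1.55 and 1.80 in control libraries and 2.04, 2.39, 3.02 and 3.03 in *Bmpr1a*-cKO libraries. All 4 *Bmpr1a*-cKO ratios exceeded all control ratios. The difference was 0.59 ± 0.15 (SE) on the log2 scale. The exact two-sided permutation test gave p = 0.0286, the smallest value that 4 against 4 libraries allow. After Benjamini-Hochberg adjustment over the 10 ratios tested it was 0.143 and did not pass. A few ratios at this smallest value cannot pass that correction, so no conclusion is drawn from not passing.

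*Hist1h2bp* was also compared with its class. Over the summed counts of the other 16 H2B genes, its ratio was 0.0114, 0.0128, 0.0142 and 0.0113 in control and 0.0101, 0.00803, 0.00771 and 0.00679 in *Bmpr1a*-cKO libraries. All 4 *Bmpr1a*-cKO ratios lay below all control ratios. The log2 difference was -0.62 ± 0.14 (SE; exact permutation p = 0.0286, adjusted 0.143). For *Hist1h2an* over the other H2A genes the log2 difference was -0.12 ± 0.08 (SE), for *Hist1h4m* over the other H4 genes -0.18 ± 0.16, and for *Hist1h4n* -0.20 ± 0.18, with exact permutation p of 0.2, 0.314 and 0.314. Against the wider fall of their classes, these 3 genes were not distinguishable at this number of libraries.

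No difference in response between the H4 genes was detectable, within a wide error. *Hist1h4m* over *Hist1h4n* was 0.672, 0.790, 0.435 and 0.650 in control and 0.718, 0.738, 0.699 and 0.432 in *Bmpr1a*-cKO libraries. The log2 difference was 0.02 ± 0.26 (SE; exact permutation p = 0.914). One library in each genotype, control replicate 3 and *Bmpr1a*-cKO replicate 4, had a low ratio, and in both of them *Hist1h4m* was the lowest and *Hist1h4n* the highest of its genotype.

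**Figure D2:**
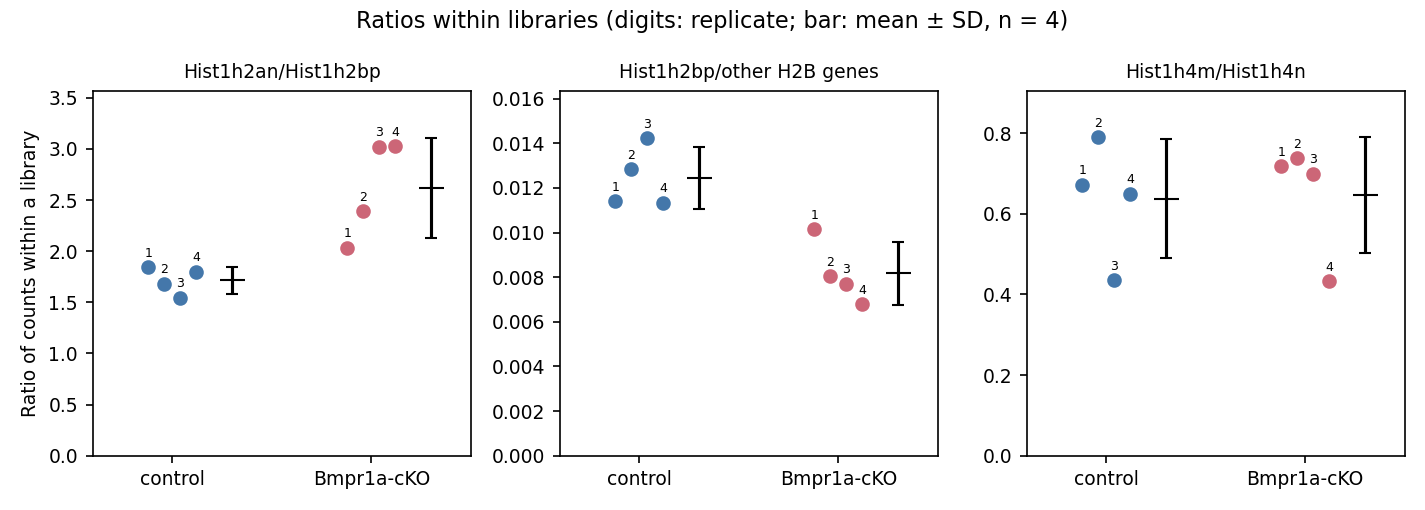
Ratio of counts within each library (y axis, linear from 0) for *Hist1h2an* over *Hist1h2bp*, *Hist1h2bp* over the other H2B genes, and *Hist1h4m* over *Hist1h4n*, in 4 control and 4 *Bmpr1a*-cKO libraries (x axis). Points are libraries with their replicate number, and bars are the mean ± SD. The first ratio is higher and the second lower in all 4 *Bmpr1a*-cKO libraries, and the third overlaps, with 1 library near 0.43 in each genotype.

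The calls among the other cluster genes were all in the lower direction. Of the 56 tested, 31 were lower, 0 were higher and 25 did not pass, and their median Log2FC was -0.33, compared with -0.52 for the 4 genes and -0.0042 for all genes tested. Linker histone genes gave 5 lower of 6, H2A genes 5 of 13, H2B genes 10 of 16, H3 genes 4 of 10 and H4 genes 7 of 11. Among the linker histones, *H1f1* fell with a Log2FC of -0.41 ± 0.09 (SE; FDR = 0.00432), and *H1f5* stood at -0.02 ± 0.08 (FDR = 0.871). Some of these genes had a lower Log2FC than the members, among them *H4c9* and *H2bc1* (values below), and no test compared the sizes. Near the members on chromosome 13, *H4c11* had a Log2FC of -0.59 ± 0.09 (FDR = 0.000119).

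The calls differed by place. On chromosome 13, 31 of 46 comparison genes were lower, with a median Log2FC of -0.34 and all 46 negative under each of the 6 scalings compared. On chromosomes 3, 6 and 11, 0 of 10 passed in either direction, and 0 did at an unadjusted p below 0.05 or by DESeq2, with a median of -0.01. The exception on chromosome 11 was *H3f4*, which has no older *Hist* symbol and lay outside the set, and which stood at -1.61 ± 0.23 (SE; FDR = 0.000101). The summed counts of the 4 members over those 10 genes were 0.399, 0.384, 0.475 and 0.392 in control and 0.286, 0.259, 0.286 and 0.294 in *Bmpr1a*-cKO libraries. The same ratio for the 46 other chromosome 13 genes was 12.3, 12.4, 14.3 and 12.3 in control and 10.2, 9.75, 10.3 and 9.97 in *Bmpr1a*-cKO libraries. Neither ratio overlapped between the genotypes, and since the split by place was made after the values were seen, no test was run on it. Read assignment also limits the contrast by place. The cluster genes *H2ac18*, *H2ac19*, *H3c14* and *H3c15* on chromosome 3 were listed at 0 in every library and not tested. Of the genes tested there, *H2bc18* and *H3c13* had 0% of their words unique. Low shares also occurred on chromosome 13, such as 9.54% for *H3c10*.

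**Figure D3:**
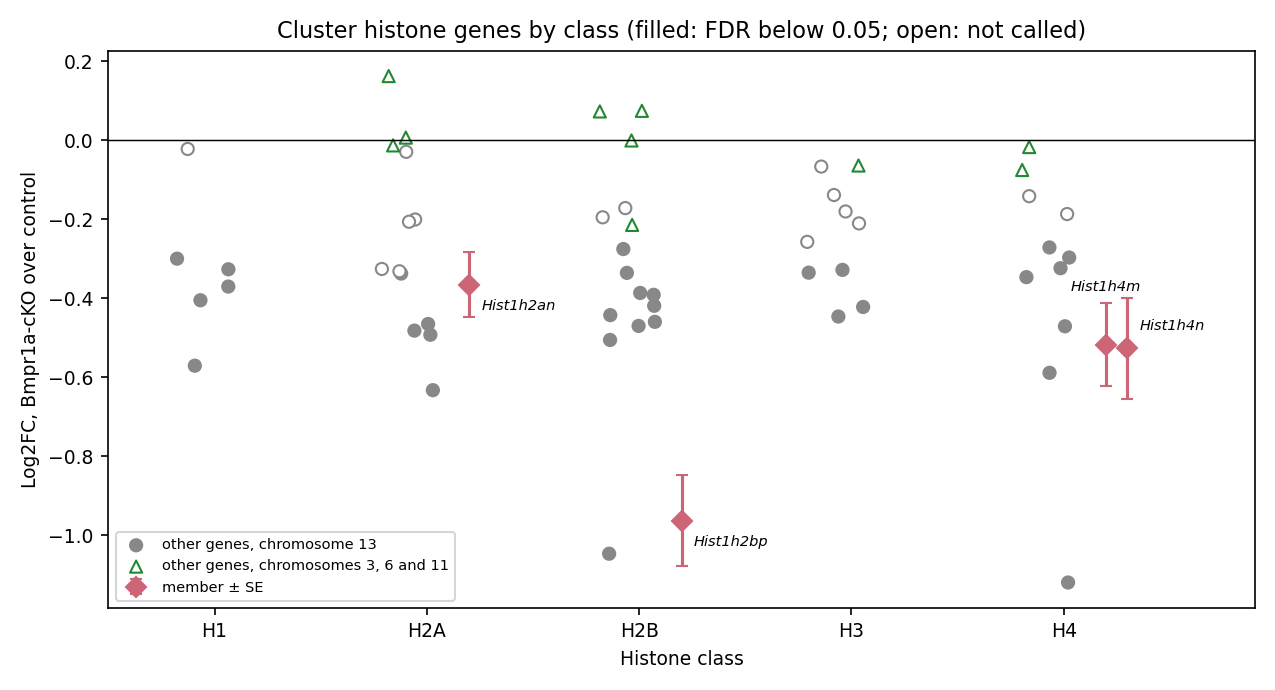
Log2FC of *Bmpr1a*-cKO over control (y axis) of the 4 members (diamonds, ± SE) and the 56 other cluster genes, by histone class (x axis). Circles are genes on chromosome 13 and triangles genes on chromosomes 3, 6 and 11; filled marks passed FDR 0.05. *Hist1h2bp* lies near the bottom at -0.96, and the 10 triangles are open and lie between -0.21 and 0.16.

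A further 3 cluster genes are known for expression in germ cells and were given values whatever their result. *Hist3h3* was also to be named, but no gene row carried that symbol or was matched to it. *H2bc1* (older symbol *Hist1h2ba*), a testis-type H2B, was at 48.5, 43.7, 55.5 and 51.1 CPM in control and 12.5, 22.7, 26.1 and 32.8 CPM in *Bmpr1a*-cKO libraries (Log2FC -1.05 ± 0.18 SE, FDR = 0.000406). *H2ac1* (*Hist1h2aa*), a testis-type H2A, had a Log2FC of -0.63 ± 0.19 (FDR = 0.0191), with overlapping groups. *H1f6* (*Hist1h1t*), the testis linker histone, had a Log2FC of -0.57 ± 0.11 (FDR = 0.00158), without overlap. The lowest of all was *H4c9*, an H4 gene at -1.12 ± 0.11 (FDR = 3.52e-06).

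Genes that serve S phase gave mostly higher calls under TMM scaling and none under germ cell marker scaling. Of 25 genes fixed as an S phase list, such as replication factors, 15 were higher and 1 lower, against 17.3% and 12.5% of all genes, with a median Log2FC of 0.22. When libraries were scaled to germ cell markers, 0 were higher and 1 lower, and the median was -0.07. Of the 25, 18 were negative in that scaling, against 7 under TMM. On the TMM scale their summed level was 2618 to 3005 CPM in control and 3092 to 3308 CPM in *Bmpr1a*-cKO libraries. Over the same libraries the 4 members summed to 279 to 361 CPM in control and 204 to 233 CPM in *Bmpr1a*-cKO, and the 56 comparison genes to 9495 to 12040 and 8159 to 9027 CPM. On this scale the histone sums were lower and the S phase sum higher in *Bmpr1a*-cKO ovaries, without overlap of the genotypes. Under germ cell marker scaling the S phase direction did not hold and the 4 members stayed lower. That scaling moved the median Log2FC of all genes to -0.32, and of its 7 markers 2 were themselves called higher and 1 lower. Under such a shift a set near 0.22 falls and a set near -0.52 stays lower, so this contrast is no separate evidence.

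**Figure D4:**
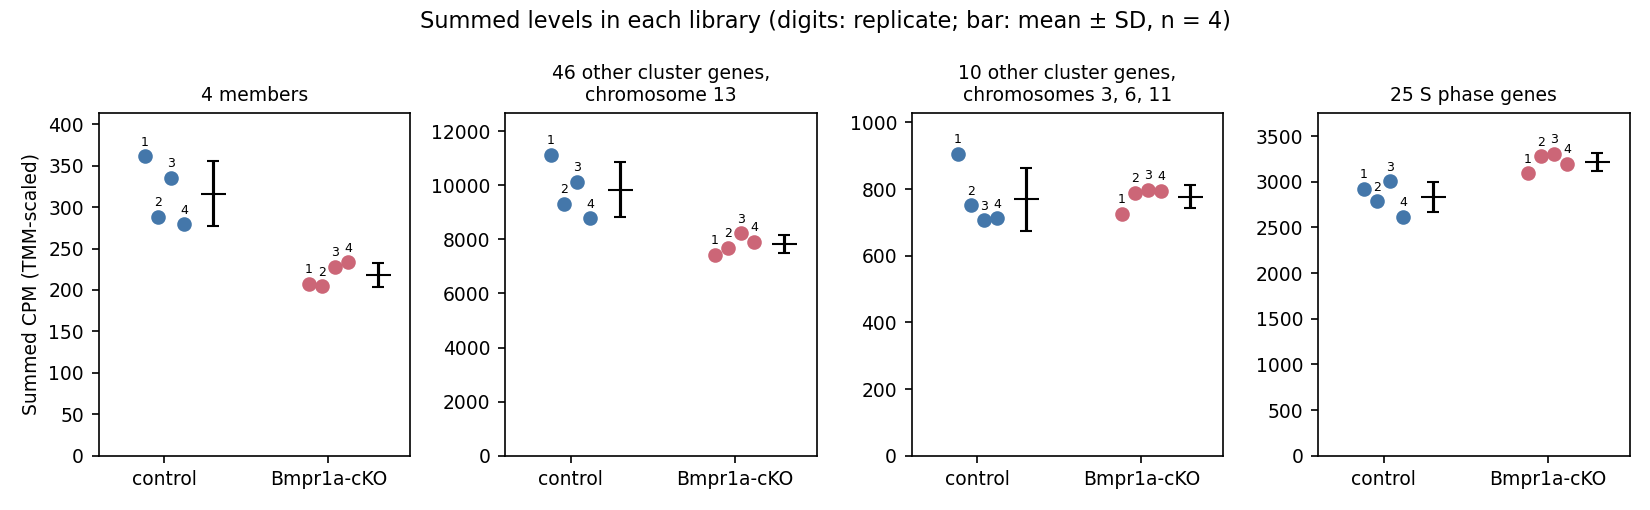
Summed CPM on TMM-adjusted library sizes (y axis, linear from 0) of the 4 members, the 46 comparison genes on chromosome 13, the 10 on chromosomes 3, 6 and 11, and 25 S phase genes, in 4 control and 4 *Bmpr1a*-cKO libraries (x axis). Points are libraries with their replicate number, and bars are the mean ± SD. The first and second sums are lower in every *Bmpr1a*-cKO library, the third overlaps between 707 and 907 CPM, and the fourth is higher in every one on this scale. Of the 25 S phase genes, 7 had a negative Log2FC under TMM scaling and 18 under germ cell marker scaling.

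Genes that transcribe, process and handle histone mRNA and protein gave calls in both directions. Of 67 such genes, 7 were lower, 18 higher and 42 did not pass, against 12.5% lower and 17.3% higher among all genes, so the lower calls were no more frequent than in the background. The higher calls depended on the scaling: 11 passed with library size alone and 0 with germ cell marker scaling, under which the median Log2FC of all genes moved to -0.32. The count of lower calls was 7 in that scaling too, but not with the same genes. There *Cramp1l* no longer passed, and *Cstf2* did (FDR = 0.0345, against 0.0949 under TMM). Leaving out control replicate 4, *Bmpr1a*-cKO replicate 2 or *Bmpr1a*-cKO replicate 4 reduced the higher calls to 11, 11 and 10.

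Of 12 genes listed for the transcription of histone genes, among them cyclin and kinase genes, 4 were lower and 4 higher. The shares over all genes were 12.5% and 17.3%. *Npat*, the cyclin E-CDK2 substrate that activates histone genes in S phase, fell from 114 ± 5.46 to 89.7 ± 7.80 CPM (SD, n = 4 each; Log2FC -0.34 ± 0.07 SE, FDR = 0.00151), with every *Bmpr1a*-cKO library below every control library. *Casp8ap2* (FLASH), its partner in the histone locus body, had a Log2FC of -0.23 ± 0.06 (FDR = 0.00979), *Ccne2* (cyclin E2) -0.65 ± 0.12 (FDR = 0.000761) and *Cramp1l* -0.16 ± 0.06 (FDR = 0.0447). With germ cell marker scaling *Cramp1l* stood at -0.46 and did not pass (FDR = 0.0731). *Pou2f1*, the octamer-binding factor OCT1, was higher at 0.38 ± 0.07 (FDR = 0.00115), as were *E2f1*, *Creb1* and *Yy1*. *Hinfp*, which acts on H4 promoters, stood at 0.04 ± 0.08 (FDR = 0.717).

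Of 24 genes for 3′ end processing, 2 were lower and 7 higher. *Zfp473*, a zinc finger protein of the U7 snRNP complex, was lower at -0.62 ± 0.17 (FDR = 0.0106), and the scaffold gene *Sympk* at -0.22 ± 0.08 (FDR = 0.0412). *Slbp*, which binds the stem-loop shown above, stood at 0.16 ± 0.09 (FDR = 0.179), and *Lsm10* and *Lsm11*, of the U7 snRNP, at 0.16 ± 0.13 (FDR = 0.401) and -0.13 ± 0.08 (FDR = 0.267). The higher genes were *Cpsf4* at 0.52 ± 0.07 (FDR = 5.73e-05), the cap-binding gene *Ncbp1* at 0.51 ± 0.07 (FDR = 3.63e-05), and *Ncbp2*, *Cpsf3*, *Cstf3*, *Srrt* and *Snrpd3* at 0.23 to 0.36. Of 11 genes for histone mRNA decay and translation, only *Eri1*, the exonuclease that trims the stem-loop, passed, at 0.23 ± 0.07 (FDR = 0.0256), and with germ cell marker scaling it stood at -0.10 (FDR = 0.709).

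Among 20 histone chaperone and assembly genes, *Asf1b* was the 1 that fell, at -0.71 ± 0.11 (FDR = 0.000154), and 6 rose. *Chaf1b*, a subunit of the chromatin assembly factor CAF-1, rose most, at 0.78 ± 0.09 (FDR = 1.53e-05), followed by *Ssrp1*, *Ipo4*, *Atrx*, *Rbbp7* and *Nasp* at 0.22 to 0.39. None of these 6 passed with germ cell marker scaling.

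**Figure D5:**
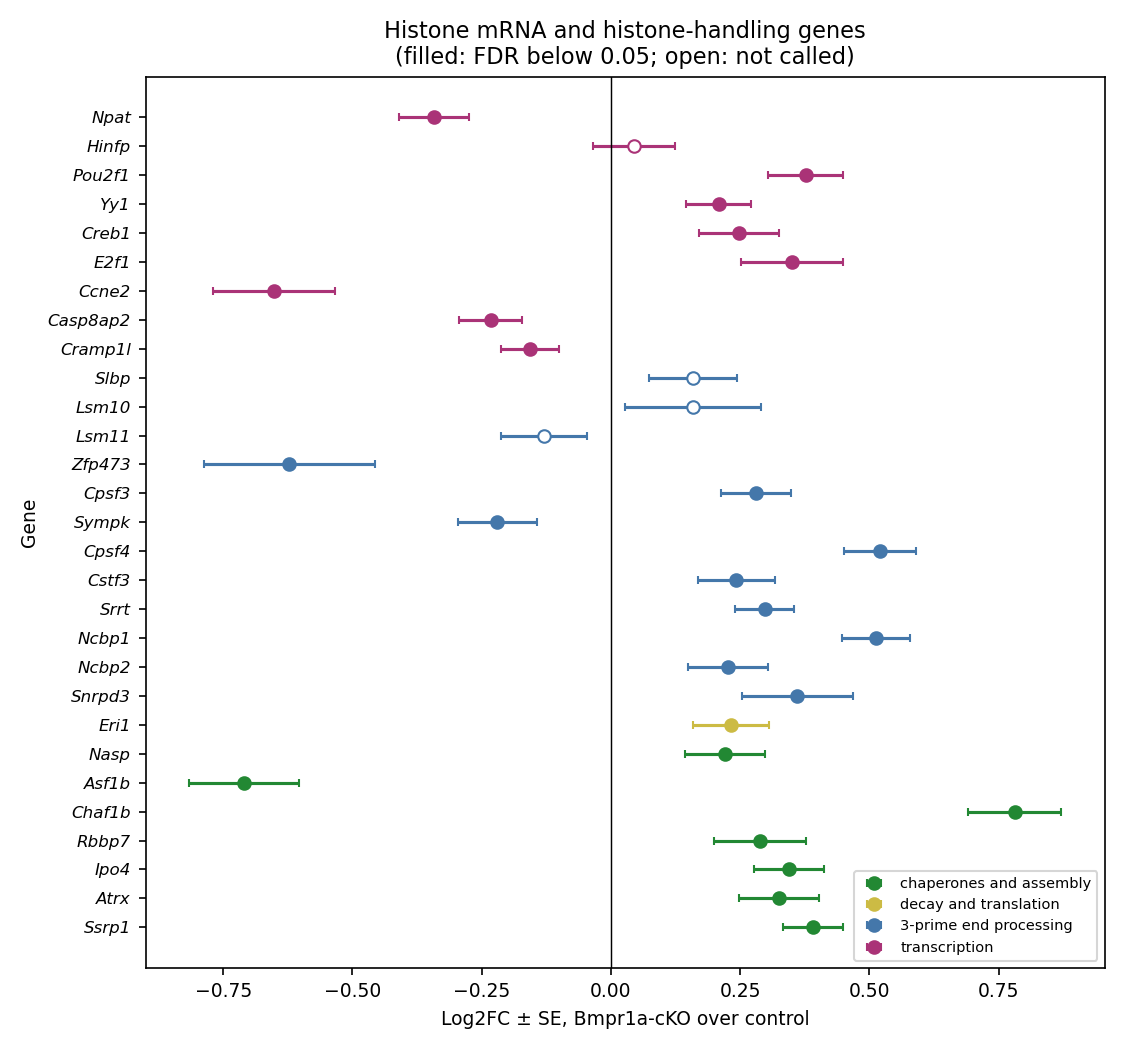
Log2FC ± SE of *Bmpr1a*-cKO over control (x axis) of the genes for histone transcription, 3′ end processing, decay and assembly (y axis) that passed FDR 0.05 (filled) or that were always shown (open where not called). *Npat*, *Ccne2*, *Casp8ap2*, *Cramp1l*, *Zfp473*, *Sympk* and *Asf1b* lie below 0, and 18 called genes lie above 0 under TMM scaling, where germ cell marker scaling called 0.

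Histone genes outside the replication-dependent clusters gave calls in both directions. Of 11 tested, against 17.3% of all genes higher and 12.5% lower, 3 were higher, *Cenpa* (centromeric H3, 0.61 ± 0.08, FDR = 6.64e-05), *H2az2* (0.38 ± 0.08, FDR = 0.00328) and *H2az1* (0.26 ± 0.06, FDR = 0.00255), and none of these was called with germ cell marker scaling, in which *H2az1* stood at -0.04. The linker histone *H1f10* was the 1 lower gene, at -0.24 ± 0.07 (FDR = 0.0135). *H2ax*, *H3f3a* and *H3f3b* had Log2FC of -0.04, -0.04 and 0.12 and did not pass.

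Markers of other cells moved between the genotypes as well. Of the 7 germ cell markers, *Dazl* and *Dnd1* were higher and *Mael* lower, and their summed level was 616 to 811 CPM in control and 643 to 1028 CPM in *Bmpr1a*-cKO libraries. For pregranulosa cells 6 of 7 markers were lower (1264 to 1520 against 1070 to 1280 CPM), and for macrophages 5 of 8 were higher (33.4 to 42.8 against 48.4 to 61.1 CPM), of which germ cell marker scaling called 0. Of 5 mesonephric markers, *Epcam* was higher (Log2FC 1.33) and the other 4 were negative without passing. The sum over all 5 was 34.1 to 46.3 CPM in control and 59.4 to 72.6 CPM in *Bmpr1a*-cKO libraries. With the other 4 negative, that sum follows *Epcam* and does not describe the mesonephric markers as a set. None of 7 stromal or 6 endothelial markers passed, and 1 of 4 tested erythroid markers was lower, with the 4 haemoglobin genes above listed at 0. No germ cell, pregranulosa, stromal, endothelial, macrophage or mesonephric marker was at 0 in all libraries. In a list meant for other RNAs without a poly(A) tail, *Rnu7* and *Rnu11* were at 0 in all libraries. That list, which included *Malat1* and *Neat1*, summed without *Rn45s* to 6303 to 8468 CPM in control and 6116 to 7612 CPM in *Bmpr1a*-cKO libraries. The part of these differences in the histone result was not tested.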

How the data were processed

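Strand-specific paired-end libraries (reads of 150 bases) were made from 500 ng total RNA per pool. The authors trimmed reads with Trimmomatic 0.39, mapped them to mm10 with STAR 2.5.2 and deposited raw read counts per gene. The annotation, the strand setting and the treatment of reads with several matches are not given in the sources used here. A deposited table of CPM values was not used. Counts were tested with edgeR 4.0.16 (filterByExpr by genotype, TMM, glmQLFit, glmQLFTest, Benjamini-Hochberg over 14249 genes). Fits on simulated counts were checked first. Fold changes are *Bmpr1a*-cKO over control. Each library is a pool of 2 embryos, and which litters it holds is not given, so p-values measure the spread between pools. Alternatives were the edgeR likelihood ratio test, DESeq2 1.42.0, RLE factors, library size alone, scaling to 7 germ cell markers, other filters, *Rn45s* or the histone rows left out, a replicate block and each library left out. Older symbols and promoters come from RefSeq (GRCm38.p6), with gene models and transcripts from GENCODE vM21, and promoters of all 4 members were found. Genes named were all members that passed FDR 0.05, linker and germline histones, 8 fixed processing genes and other listed genes when called, and further genes named after their values were seen were *H4c9*, *H4c11*, *H3f4* and *Hist1h2al*. The members and lists were chosen with earlier results of these data known.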

Additional observations from a re-analysis of the deposited data

Results flagged for a closer look

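In 126 groups of 4 libraries, taken over the histone genes, the named pathway genes and the summed levels, 3 held a library whose gap to its nearest neighbour, over the range of the group, exceeded Dixon's 95% critical value. Chance flags about 1 in 20 such groups. *Hist1h2al*, the pseudogene row below the count floor, was at 18.1 CPM in *Bmpr1a*-cKO replicate 4 and between 0.149 and 0.523 CPM in the other *Bmpr1a*-cKO libraries. *Eri1* was at 34.9 CPM in control replicate 3 and between 36.5 and 36.6 CPM in the other control libraries. *Chaf1b* was at 48.8 CPM in *Bmpr1a*-cKO replicate 3 and between 45.2 and 45.7 CPM in the others. No member was flagged in either genotype.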

How the results depend on the processing

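All 4 genes stayed lower and past FDR 0.05 in each of the 10 other ways of processing and in each of the 8 fits without 1 library. Over the 10, Log2FC ranged from -1.24 to -0.95 for *Hist1h2bp*, -0.68 to -0.36 for *Hist1h2an*, -0.83 to -0.51 for *Hist1h4m* and -0.86 to -0.52 for *Hist1h4n*, with the lowest value of each under germ cell marker scaling, in which the median of all genes was -0.32. Downregulated DEGs among the 4 numbered 1 to 3 when 1 library was left out. Histone transcription, processing and assembly genes called higher numbered 11 with library size alone, 0 with germ cell marker scaling and 10 to 23 without 1 library. Replication-independent histone genes called higher numbered 0 with germ cell marker scaling, and those called lower numbered 2 with the likelihood ratio test, DESeq2, RLE factors, library size alone, without *Rn45s*, with histone rows left out of scaling and with the replicate block, and 0 to 2 without 1 library. Among the 56 other cluster genes, those called higher numbered 0 to 1 without 1 library. The cause of these shifts was not tested. The replicate numbers were not taken to pair the libraries, since the labels tie them to no shared litter or batch and not every same-numbered pair correlated above 0.1 in its deviations from the group means. The correlations were 0.198, 0.161, 0.108 and -0.0871, and 5 of 8 libraries correlated best with their own number, a hint from the data. With the replicate block, calls over all genes numbered 4771 against 4242 and other cluster genes called lower 39 against 31, and it changed no call on the 4 members. The alternatives on the other cluster genes and on the added H4 counts were chosen after seeing the data. Precision is limited by the assignment of reads between near-identical genes and by 4 libraries per genotype.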

Other observations

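*H3f4*, a gene for a testis-type histone H3 on chromosome 11, has no older *Hist* symbol in RefSeq and so fell in neither set. It was picked after its values were seen. It was at 139, 76.3, 126 and 117 CPM in control replicates 1 to 4 and at 18.2, 31.9, 43.7 and 54.2 CPM in *Bmpr1a*-cKO replicates 1 to 4, without overlap (Log2FC -1.61 ± 0.23 SE, edgeR FDR = 0.000101). This was lower than any of the 60 cluster histone genes tested.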
